A study of Rattus norvegicus with 30 samples.

Results

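The 46 genes described here encode enzymes of amino acid breakdown and of the urea cycle, and were read in primary rat hepatocytes exposed to WY-14643 (also called pirinixic acid), a compound that activates the nuclear receptor PPARα. A gene was included by its symbol, through array probe sets annotated with that single symbol. Of the 46 genes, 45 had such a probe set and passed a filter on low signals, among 11545 genes tested in all, and the genes held 57 of the 31099 probe sets on the array, 56 of them above the filter. Amdhd1, the imidazolonepropionase of histidine breakdown, had no probe set of that single symbol and was not analysed here. Each tested gene is given by its probe set of highest mean log2 signal.

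The cells were bought as frozen hepatocytes of male Sprague Dawley rats, thawed, seeded into collagen-coated wells under a layer of Matrigel and dosed on day 3 of culture. There were 6 groups of 5 wells: vehicle, 8 µM WY-14643 and 200 µM WY-14643, each harvested 24 h and 48 h after dosing, giving 30 arrays. All groups, the vehicle wells included, are cultured cells outside the animal, and the vehicle is labelled as 1% DMSO, and since the dosing solutions are described as made up at high strength in the same solvent mix, how much DMSO the dosed wells held is uncertain. The wells are described as separate cultures and biological replicates, but nothing says that they came from different animals, so errors and p-values measure the spread between wells. No time point before dosing was used here, and the vehicle of the same time was the reference for each dose.

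The liver is the main site where the carbon skeletons of amino acids are broken down, and for most amino acids the first step is an aminotransferase, a deaminating lyase or a dioxygenase made in hepatocytes. The nitrogen that is released is collected as glutamate and ammonia and is turned into urea by the enzymes of the urea cycle, which begins in mitochondria and ends in the cytosol. Glucocorticoids and glucagon are known to raise many of these enzymes in fasting. PPARα is known mainly as the receptor that raises fatty acid oxidation genes, and lowering of amino acid enzymes by its agonists has been described in rodent liver.

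The arrays carried MAS5 signals, a linear intensity per probe set, and their number limits the precision. The response to the agonist was present in the treated wells, since 6 of 6 tested genes of a list of known PPARα targets rose at both doses and both times, among them Cyp4a1, a fatty acid hydroxylase (log2 fold change 3.82 at 8 µM and 24 h), Pdk4, a kinase that restrains pyruvate oxidation (3.47), and Acadm, an acyl-CoA dehydrogenase (1.83). All 6 hepatocyte markers on the array were above the filter, with a summed signal whose median was 451061 in vehicle, 407809 at 8 µM and 425336 at 200 µM at 24 h, and 403833, 349023 and 349990 at 48 h. Of these 6, 1 fell at 8 µM and 24 h and 2 fell at each dose at 48 h, among them the fibrinogen chain Fgb (-0.30 at 8 µM and 24 h, -1.12 and -0.55 at 48 h), and without 48 h vehicle replicate 4 the counts were 2, 3 and 4. The summed signal of 6 Kupffer cell markers ranged from 4727 to 6090 in vehicle and 3962 to 4442 at 200 µM at 24 h, and from 2753 to 4074 and 2184 to 2600 at 48 h, and 2 and 3 of the 6 fell at 200 µM. The sum of the 8 stellate cell markers on the array ranged from 3929 to 4421 in vehicle and 3121 to 3678 at 200 µM at 24 h, and from 4457 to 7665 and 3399.8 to 3895 at 48 h. Of the 6 above the filter, 1 and 3 were called lower at 200 µM. For the 6 endothelial markers on the array the ranges were 2117 to 2766 and 1659 to 2591 at 24 h, and 1531 to 3714 and 1187 to 1715 at 48 h. Of the 5 above the filter, 1 and 2 were called lower at 200 µM. For the 5 bile duct markers on the array they were 8208 to 10411 and 6975 to 8057, and 10085 to 13396 and 9824 to 10778. Of the 2 above the filter, 1 was called lower at 200 µM at each time. At 200 µM and 48 h the markers called lower without 48 h vehicle replicate 4 numbered 4 Kupffer, 1 stellate, 1 endothelial and 2 bile duct. At 8 µM the Kupffer sum ranged from 4560 to 5376 at 24 h and 3441 to 3847 at 48 h. Of these markers 0 were called lower at 8 µM at either time, and 1 rose at 48 h. Called lower at 8 µM were 1 stellate and 1 bile duct marker at 24 h, and 2 stellate, 1 endothelial and 1 bile duct at 48 h. The endothelial call was lost without that array. The stellate markers Lrat and Pdgfrb, the endothelial marker Vwf and the bile duct markers Cftr, Krt7 and Spp1 did not pass the filter. They were not tested, but their signals are part of these sums. The ratio of 3′ to 5′ β-actin probe signal, a measure of RNA and label length, averaged 2.86 in vehicle, 3.10 at 8 µM and 3.31 at 200 µM at 24 h, and 2.61, 3.26 and 3.10 at 48 h. The same ratio for GAPDH was not higher in dosed wells. It averaged 1.19, 1.14 and 1.16 at 24 h, and 1.18, 1.15 and 1.15 at 48 h. Whether these shifts played a part in the results was not tested. The array of 48 h vehicle replicate 4 stood apart, with a median signal of 765 against 385 to 439 on the other 29 arrays and 73.9% of probe sets above the filter threshold against 57.9% to 61.2%. Calls against vehicle, between doses and between times that turn on it are given with and without it below. Comparisons at 24 h, and those between doses, hold no 48 h vehicle well. Their fold changes stayed the same without this array, and calls there moved only through the spread shared by all 6 groups and the set of genes tested.

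More of the amino acid genes fell than rose under WY-14643, at both doses and both times. At 24 h, 23 of 45 fell and 7 rose at 8 µM, and 23 fell and 7 rose at 200 µM, by limma with Benjamini-Hochberg adjustment over all genes and a threshold of 0.05. Over all genes tested, 13.8% fell and 11.1% rose at 8 µM, and 13.1% fell and 11.6% rose at 200 µM. At 48 h, 19 fell and 10 rose at 8 µM, against 18.9% and 16.7% of all genes, and 18 fell and 10 rose at 200 µM, against 17.1% and 16.8%. The same shares of all genes are the background for the counts by substrate below. The share of amino acid genes that fell was 51.1% at 24 h for either dose, and 42.2% and 40% at 48 h, so it exceeded the background share in each comparison, while the share that rose, 15.6% and 22.2%, lay closer to it. The median log2 fold change of the 45 genes was -0.23 and -0.26 at 24 h and -0.10 and -0.16 at 48 h for 8 µM and 200 µM, where the median of all genes was -0.03, -0.02, -0.06 and -0.05. In bulk RNA of a well, fewer cells of a type and less RNA per cell cannot be told apart.

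These counts depended on how the arrays were brought to a common level. Centring each array on its median in place of the deposited scaling moved the median of all genes at 48 h from -0.06 to 0.13 at 8 µM and from -0.05 to 0.12 at 200 µM, and left 4 genes up and 11 down, 3 and 9, 9 and 12, and 10 and 4 in the 4 comparisons, with 2082 up and 766 down, and 1944 up and 695 down, among all genes at 48 h. With 48 h vehicle replicate 4 left out as well, centring gave 7 up and 23 down, 8 and 23, 8 and 21, and 10 and 26. The median of all genes was then 0.004, -0.002, -0.01 and -0.01. The shares of all genes called under that setting, and under centring alone at 24 h, are not given here, so those counts have no background. Without that array but with the deposited scaling the genes split into 7 up and 24 down, 9 and 27, 7 and 22, and 10 and 26. Of all genes, 17.2%, 16.4%, 20.4% and 19.1% then fell, and 13.8%, 14.7%, 16.9% and 17.4% rose. No called amino acid gene changed direction under any scaling that was tried.

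By gene, 13 of the 45 fell in all 4 comparisons with vehicle and 5 rose in all 4. The doses at each time were compared with the same vehicle wells, so the 4 comparisons are not independent. The share of all genes with such a pattern was not counted, so whether 13 and 5 of 45 are unusual was not tested. The 13 span histidine ammonia-lyase, tyrosine, tryptophan, methionine and proline breakdown and the urea cycle: Gnmt, Cth, Hal, Tat, Fah, Tdo2, Haao, Nags, Cps1, Otc, Ass1, Prodh and Aldh4a1. The 5 that rose throughout were Uroc1, Kynu, Oat, Dbt and Hibch. In all, 26 fell in at least 1 comparison and rose in none, 12 rose in at least 1 and fell in none, Hgd and Gpt passed in both directions, and Bhmt, Ftcd, Hpd, Mccc1 and Aldh6a1 passed in none. With 48 h vehicle replicate 4 left out, the same 13 fell in all 4 comparisons with Asl and Ivd beside them, and the same 5 rose in all 4 with Bckdhb beside them. Gpt was then called lower only. Under every alternative tried, only Hal, Tat and Aldh4a1 kept all 4 falls, and only Oat, Dbt and Hibch kept all 4 rises. Centring each array on its median ended all 4 calls of Fah and of the main Cps1 probe set, which were kept when that array was left out as well.

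**Figure D1:**
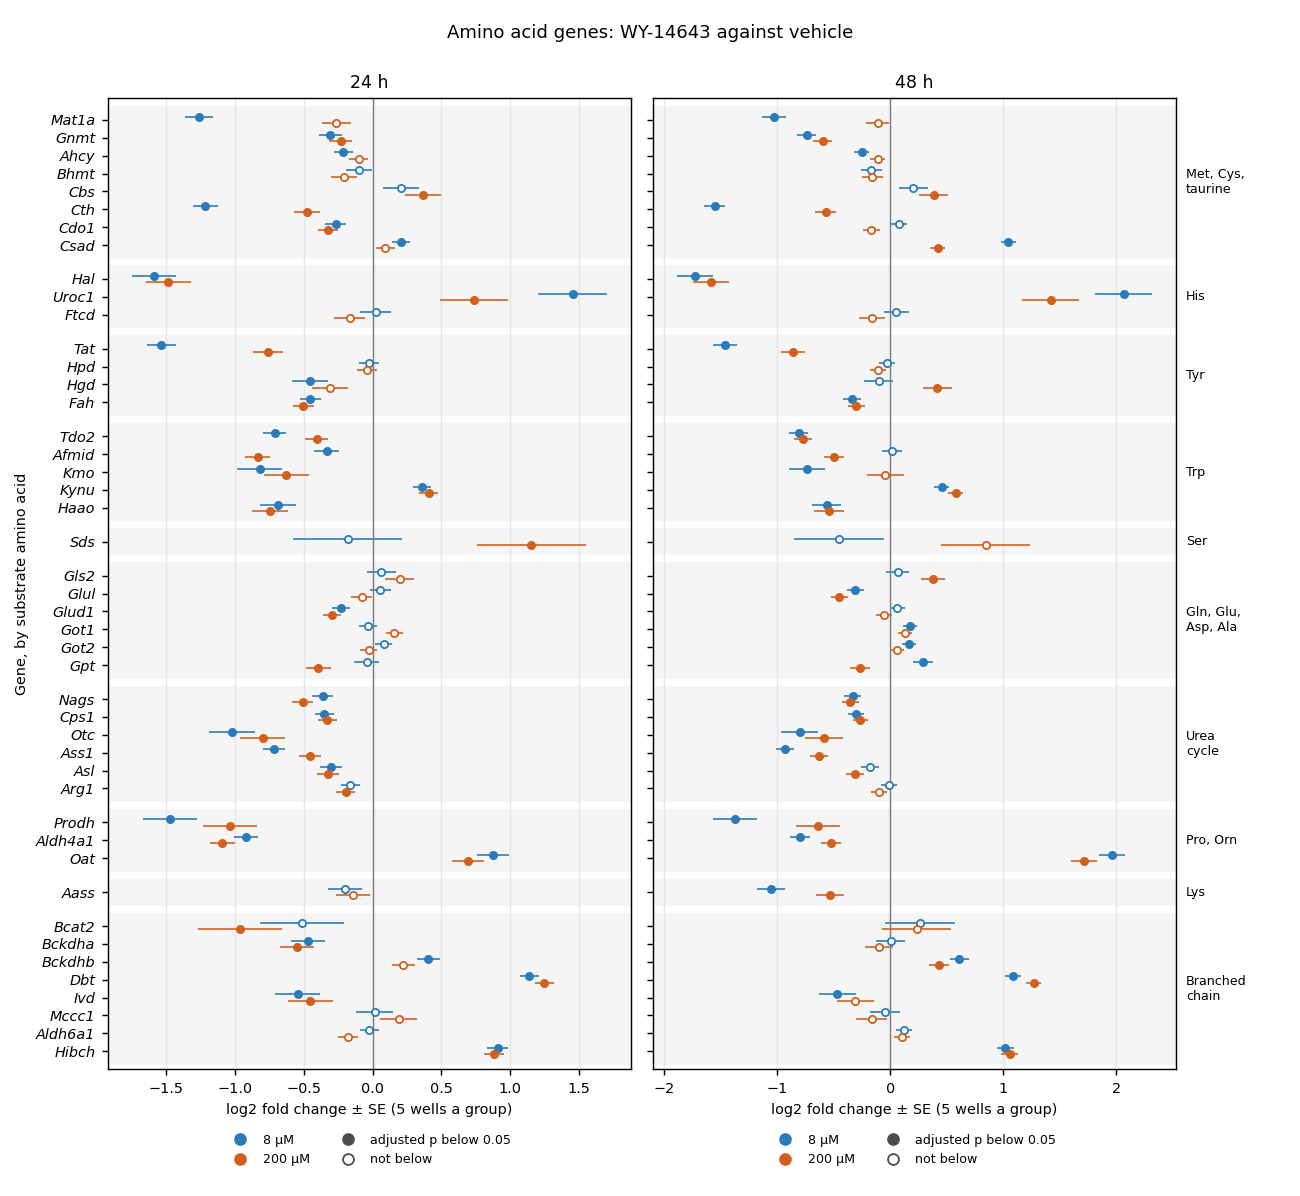
Log2 fold change against vehicle of the same time (x axis, ± SE, 5 wells a group) of the 45 tested genes (y axis, grouped by substrate), at 24 h on the left and 48 h on the right, with 8 µM in blue, 200 µM in orange and filled points for adjusted p below 0.05. Most filled points lie left of 0, and Uroc1, Kynu, Oat, Dbt and Hibch lie right of it in both panels at both doses.

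The 300 bases around the annotated start of 4 genes are shown because these had the largest moderated statistics among the changed genes with an entry in the RefSeq promoter table (build GRCr8), which held 38 of the 46 genes. Dbt (chr2:207166410-207166709, plus strand) and Oat (chr1:196797705-196798004, minus strand) rose in all 4 comparisons, Cth (chr2:249661017-249661316, minus strand) fell in all 4, and Csad (chr7:135215532-135215831, minus strand) rose in 3. Each sequence runs 5′ to 3′ on the gene's strand, from 250 bases before the start to 50 after it, and capitals mark matches to the motifs searched, here only the CCAAT box (CCAAT on either strand).
Dbt: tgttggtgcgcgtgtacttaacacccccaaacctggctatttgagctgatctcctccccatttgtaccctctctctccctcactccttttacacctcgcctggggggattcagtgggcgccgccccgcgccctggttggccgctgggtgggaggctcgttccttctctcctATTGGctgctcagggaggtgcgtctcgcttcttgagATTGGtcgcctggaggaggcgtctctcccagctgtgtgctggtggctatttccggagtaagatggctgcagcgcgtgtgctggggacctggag
Oat: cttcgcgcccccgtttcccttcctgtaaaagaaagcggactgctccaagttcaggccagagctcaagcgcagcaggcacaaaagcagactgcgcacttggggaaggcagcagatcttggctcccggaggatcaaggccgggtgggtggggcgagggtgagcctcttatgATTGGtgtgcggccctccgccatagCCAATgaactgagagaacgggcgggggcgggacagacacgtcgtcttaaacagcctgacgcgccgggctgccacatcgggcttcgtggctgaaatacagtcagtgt
Cth: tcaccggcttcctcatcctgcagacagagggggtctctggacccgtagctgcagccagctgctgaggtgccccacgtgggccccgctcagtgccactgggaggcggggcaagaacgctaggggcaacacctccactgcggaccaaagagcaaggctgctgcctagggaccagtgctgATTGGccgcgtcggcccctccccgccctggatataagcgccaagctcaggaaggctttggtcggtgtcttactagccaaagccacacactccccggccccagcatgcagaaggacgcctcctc
Csad: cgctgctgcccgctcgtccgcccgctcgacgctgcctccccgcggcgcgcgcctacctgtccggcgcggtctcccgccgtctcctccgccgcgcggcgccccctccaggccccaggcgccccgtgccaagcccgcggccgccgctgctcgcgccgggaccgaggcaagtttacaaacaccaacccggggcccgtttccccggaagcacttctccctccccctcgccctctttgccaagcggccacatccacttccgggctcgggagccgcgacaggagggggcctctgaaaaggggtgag
The Dbt window held 2 matches and the Oat window 2, the Cth window held 1, and the Csad window held none of the motifs. Of the 38 genes with an entry 20 (52.6%) held CCAAT, against 37.5% of the 33469 windows in the table. The units differ slightly: 2 of the genes had more than 1 entry, and a gene counted if any of its windows matched. The nuclear receptor hexamer AGGTCA was in 9 (23.7% against 16.2%), the glucocorticoid receptor hexamer TGTTCT in 4 (10.5% against 20.7%), the TATA box TATAAA in 5 (13.2% against 14.2%) and the ATF4 and C/EBP composite core TGATGNAA in 2 (5.26% against 3.98%). No amino acid gene's window held the C/EBP palindrome TTGCGCAA (0.17% of all windows), the CRE palindrome TGACGTCA (1.83%), the direct repeat 1 of that nuclear receptor hexamer, which is the form PPARα binds (0.0538%), or the HNF1 palindrome (0.00299%). Both strands were searched, the hexamer can lie within the direct repeat, and a match is a description of letters in a window, not a site in use.

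Methionine is activated by Mat1a to S-adenosylmethionine, used by methyltransferases such as Gnmt, and passed through Ahcy to homocysteine, which Bhmt returns to methionine and Cbs and Cth carry on to cysteine. Of these genes and the 2 that turn cysteine towards taurine, Cdo1 and Csad, 5 of 8 fell and 1 rose at 8 µM and 24 h, and 4 fell and 1 rose at 8 µM and 48 h. At 200 µM the split was 3 down and 1 up at 24 h and 2 down and 2 up at 48 h, which became 5 down and 1 up, and 5 down and 2 up, without 48 h vehicle replicate 4. Mat1a at the entry and Cth at the exit to cysteine fell at 8 µM at both times, and Csad at the taurine end rose.

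Cth, cystathionine gamma-lyase, had signals of 17816, 16793, 15518, 14016 and 20936 in the 48 h vehicle wells and 4680.5, 5778, 5921, 5678 and 6896 at 8 µM. Every dosed well lay below every vehicle well, the log2 fold change was -1.55 ± 0.09 (2.93-fold lower, limma adjusted p = 1.7e-15), and at 24 h it was -1.22 ± 0.09. At 200 µM the fall was smaller, -0.48 ± 0.09 at 24 h and -0.57 ± 0.09 at 48 h. Mat1a, which makes the methyl donor of the liver, showed the same order of doses. Its mean signal at 24 h was 8606 ± 1342 (SD, n = 5) in vehicle, 3554 ± 324 at 8 µM and 7109 ± 536 at 200 µM. The log2 fold changes were -1.26 ± 0.10 at 8 µM (limma adjusted p = 7.8e-12) and -0.26 ± 0.10 at 200 µM, which did not pass (adjusted p = 0.061). Without 48 h vehicle replicate 4 the 200 µM change was called at the same fold change (adjusted p = 0.04), through the shared spread and the set of genes tested. At 48 h the values were -1.03 ± 0.10 at 8 µM and -0.11 ± 0.10 at 200 µM (adjusted p = 0.45).

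Csad, the decarboxylase that makes hypotaurine, read 10440.5, 8493, 8517, 8188 and 9345 in vehicle at 48 h and 19589.7, 17067, 16342, 19153 and 20557 at 8 µM. No well of one group reached the range of the other, and the log2 fold change was 1.04 ± 0.07 (2.06-fold higher, limma adjusted p = 1.2e-14), against 0.42 ± 0.07 at 200 µM. At 24 h it was 0.21 ± 0.07 at 8 µM, a call that was lost without 24 h vehicle replicate 4 or replicate 5 (adjusted p 0.058 and 0.086), and 0.09 ± 0.07 at 200 µM, which did not pass. Gnmt, the methyltransferase that takes up excess S-adenosylmethionine, fell by 0.31 and 0.23 at 24 h and by 0.74 and 0.60 at 48 h for 8 µM and 200 µM on the log2 scale, and the 200 µM call at 24 h was lost without any 1 of 6 arrays (adjusted p 0.054 to 0.0999). Ahcy, which hydrolyses S-adenosylhomocysteine, fell at 8 µM (-0.21 and -0.25) and stood at -0.10 and -0.11 at 200 µM, which did not pass. Its 24 h call was lost without 24 h vehicle replicate 2 or 3 (adjusted p 0.050 and 0.065), and without 48 h vehicle replicate 4 it was also called lower at 200 µM and 48 h, at -0.21 (limma adjusted p = 4.1e-04). Cdo1, the dioxygenase of cysteine, fell at 24 h (-0.27 and -0.32) and stood at 0.08 and -0.17 at 48 h, the latter -0.22 and called without 48 h vehicle replicate 4 (limma adjusted p = 0.011).

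Cbs, which condenses homocysteine with serine, rose at 200 µM at both times (0.37 and 0.39) and stood at 0.21 and 0.20 at 8 µM. The rise at 24 h was lost without any 1 of 8 arrays (adjusted p 0.052 to 0.095) and that at 48 h without vehicle or 200 µM replicate 5 (0.062 and 0.065). Bhmt, which remethylates homocysteine with betaine, stood between -0.21 and -0.10 and passed in no comparison. Without 48 h vehicle replicate 4, Bhmt was called lower in 3 comparisons, at -0.21 at 200 µM and 24 h, -0.28 at 8 µM and 48 h and -0.27 at 200 µM and 48 h.

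**Figure D2:**
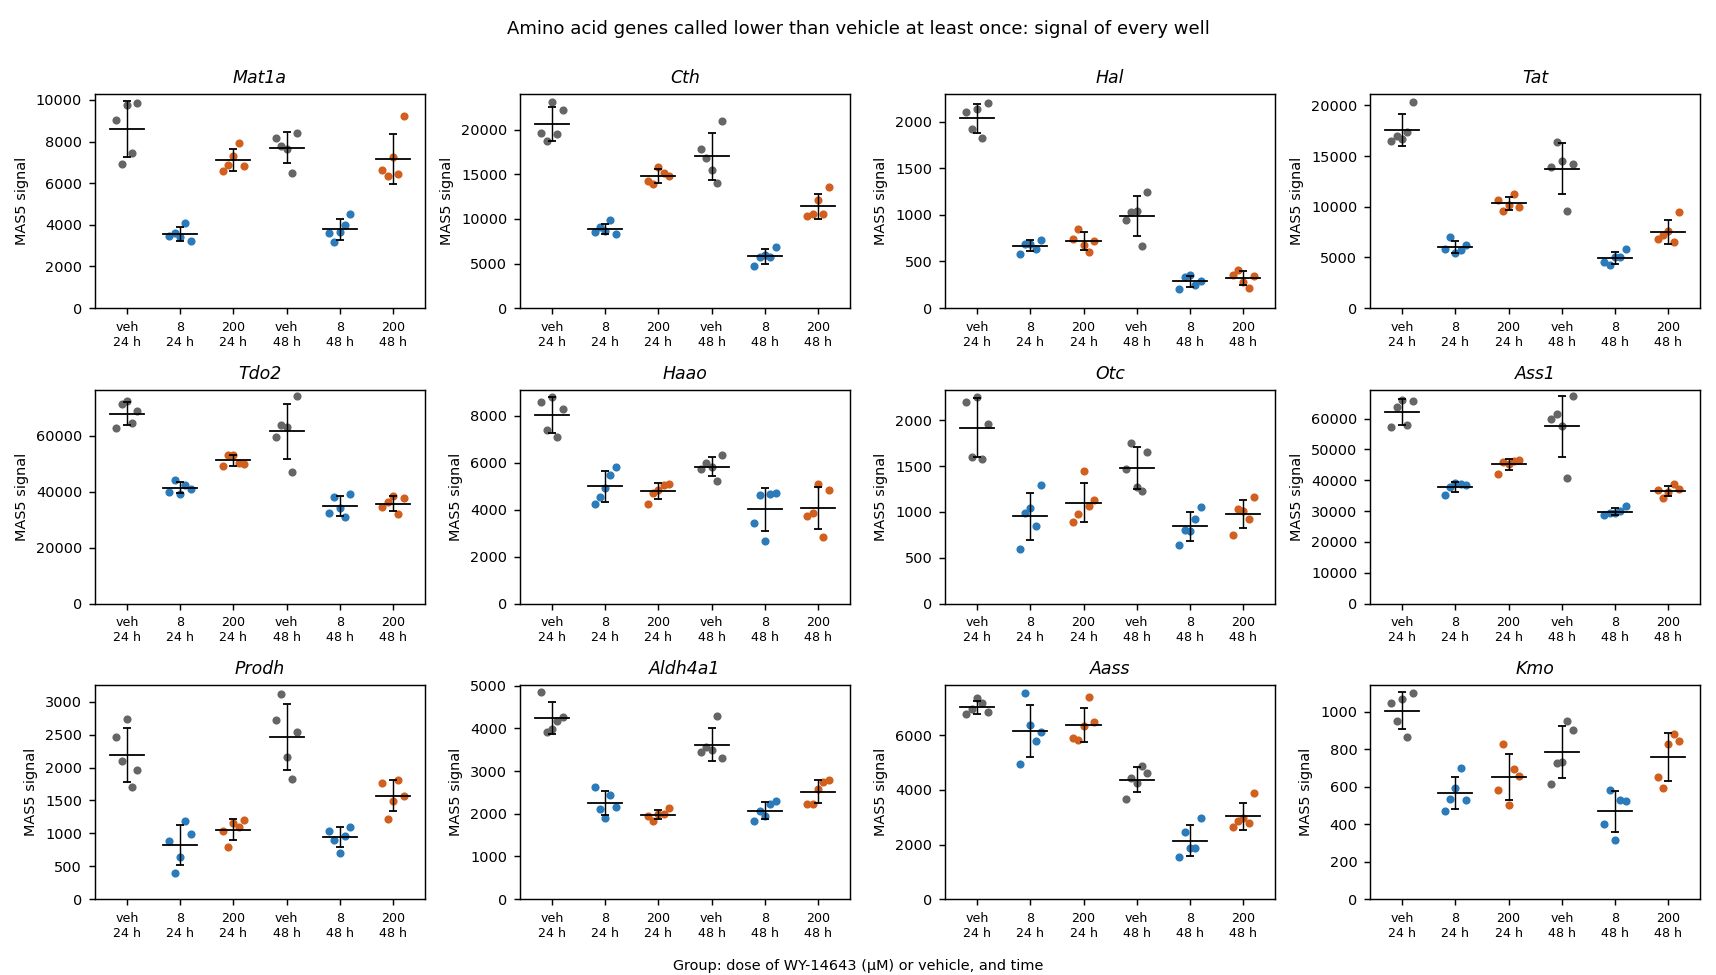
MAS5 signal of every well (points), with the group mean (bar) and SD (error bar, n = 5), for 12 genes that were called lower than vehicle at least once, by dose and time on the x axis. For Cth, Mat1a, Tat and Prodh the 8 µM wells lie below the 200 µM wells at one or both times, while for Hal both doses sit together, and the vehicle wells of Hal and Aass are lower at 48 h than at 24 h.

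Histidine breakdown starts with Hal, which removes ammonia to give urocanate, and goes on through Uroc1 and Amdhd1 to Ftcd, which hands a one-carbon unit to folate. The first and second genes of this route moved in opposite directions, Hal down and Uroc1 up in all 4 comparisons, and Ftcd passed in none. Hal read 946, 1026, 1046, 669 and 1249 in vehicle at 48 h and 209, 329, 357, 249 and 286 at 8 µM. The dosed wells were all below the lowest vehicle well, with log2 fold changes of -1.59 ± 0.16 and -1.49 ± 0.16 at 24 h and -1.73 ± 0.16 and -1.59 ± 0.16 at 48 h for 8 µM and 200 µM (limma adjusted p = 1.3e-10 for 8 µM at 48 h). These changes came on top of a decline with time in vehicle wells, from a mean of 2034 ± 154 at 24 h to 987 ± 209.9 at 48 h (SD, n = 5).

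Uroc1, urocanate hydratase, read 2305, 2097, 2199, 469 and 2653 in the 48 h vehicle wells and 5708, 7749, 7323, 5838 and 9357 at 8 µM. One vehicle well, replicate 4, was far below the other 4, and all 8 µM wells were above all vehicle wells. The log2 fold change was 2.06 ± 0.25 (limma adjusted p = 3.6e-08) at 8 µM and 1.42 ± 0.25 at 200 µM, and without vehicle replicate 4 it was 1.61 and 0.97. At 24 h the rise was 1.45 ± 0.25 at 8 µM and 0.74 ± 0.25 at 200 µM, the latter lost without any 1 of 5 arrays (adjusted p 0.051 to 0.057) and kept without 48 h vehicle replicate 4. Ftcd stood at 0.02, -0.17, 0.05 and -0.16 in the same order of comparisons, and without that array the 200 µM values were called lower at -0.17 and -0.34.

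Tyrosine is transaminated by Tat, oxidised by Hpd and opened by Hgd, and Fah cleaves the last intermediate. At 8 µM and 24 h 3 of these 4 genes fell, and at 200 µM and 48 h 2 fell and 1 rose (3 and 1 without 48 h vehicle replicate 4). Tat, a classical glucocorticoid-induced enzyme, read 16477, 16928, 16698, 17378 and 20308 in vehicle at 24 h and 5857, 6997, 5458, 5732 and 6179.6 at 8 µM. The ranges lay far apart, with a log2 fold change of -1.54 ± 0.11 (2.90-fold lower, limma adjusted p = 1.1e-13). At 200 µM the change was -0.76 ± 0.11, and at 48 h it was -1.46 ± 0.11 and -0.86 ± 0.11 for the lower and the higher dose.

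Fah, fumarylacetoacetase, read 28797, 29753, 30572, 27195 and 30180.2 in vehicle and 20007, 20456, 21287, 20509.9 and 20982 at 200 µM at 24 h. The groups did not overlap, and the gene fell in all comparisons, at -0.45, -0.50, -0.34 and -0.30 (limma adjusted p between 5.4e-06 and 0.0029). Hgd, homogentisate dioxygenase, fell at 8 µM and 24 h (-0.45 ± 0.13) and rose at 200 µM and 48 h (0.42 ± 0.13, adjusted p = 0.013), with -0.31 and -0.10 in the other two comparisons. Its vehicle mean was 2625 ± 415 at 24 h and 1689.7 ± 239.8 at 48 h, and its 200 µM mean was 2112 ± 360.1 and 2257 ± 248 (SD, n = 5). Hpd, the dioxygenase before it, lay between -0.11 and -0.03 and passed in none, and without 48 h vehicle replicate 4 it was called lower at 48 h, at -0.12 and -0.20.

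Tryptophan enters the kynurenine route through Tdo2, and Afmid, Kmo, Kynu and Haao lead on towards the precursor of NAD. Of these 5 genes 4 fell and 1 rose at 24 h at each dose, and 3 fell and 1 rose at 48 h at each dose, the gene that rose being Kynu throughout. Tdo2, tryptophan dioxygenase, read 59672, 63889.9, 63293, 47019 and 74334 in vehicle at 48 h and 32379, 38192, 34037, 31050.4 and 39035 at 8 µM. All dosed wells lay below the lowest vehicle well, and the log2 fold change was -0.81 ± 0.08 (limma adjusted p = 7.7e-10), with -0.77 ± 0.08 at 200 µM and -0.71 ± 0.08 and -0.41 ± 0.08 at 24 h.

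Afmid, kynurenine formamidase, read 10953, 9667, 10615, 9264 and 9030.4 in vehicle at 24 h and 6172, 5644, 5258, 4594 and 6153 at 200 µM. These groups did not overlap, and the log2 fold change was -0.83 ± 0.09 at 200 µM (limma adjusted p = 5.7e-09) against -0.33 ± 0.09 at 8 µM, so that here the higher dose gave the larger fall. At 48 h it was -0.49 ± 0.09 at 200 µM and 0.01 ± 0.09 at 8 µM, which did not pass. A further pair of probe sets for Afmid fell at 200 µM at both times (-0.74 and -0.59 for one, -0.84 and -0.49 for the other) and did not pass at 8 µM.

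Kmo, the monooxygenase of kynurenine, fell at both doses at 24 h (-0.82 and -0.63) and at 8 µM at 48 h (-0.73), and stood at -0.04 at 200 µM and 48 h. Haao, which makes the immediate precursor of quinolinate, fell by 0.69, 0.74, 0.56 and 0.54 on the log2 scale in the 4 comparisons. Kynu, kynureninase, was the exception in this route. Its mean at 48 h was 5127 ± 372 in vehicle, 7037 ± 656 at 8 µM and 7652 ± 235 at 200 µM (SD, n = 5), for log2 fold changes of 0.45 and 0.58 after 0.36 and 0.41 at 24 h (limma adjusted p = 1.7e-08 for 200 µM at 48 h).

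Sds, serine dehydratase, was a dim probe set whose wells scattered widely. It read 178, 415, 303, 88.8 and 368 in vehicle at 24 h and 477, 697, 553, 588 and 467 at 200 µM. All 200 µM wells were above all vehicle wells, and the log2 fold change was 1.15 ± 0.40 (limma adjusted p = 0.029), a call lost without any 1 of 5 arrays (adjusted p 0.051 to 0.131). At 48 h it was 0.84 ± 0.40 (adjusted p = 0.10), and at 8 µM it was -0.18 ± 0.40 and -0.45 ± 0.40, neither of which passed. Its standard error of 0.40 compares with a median of 0.124 over all genes.

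Glutamine is split by Gls2 and made by Glul, glutamate is oxidised by Glud1, and Got1, Got2 and Gpt move amino groups between glutamate and aspartate or alanine. Changes in this group were small, and none of the 6 genes was called at 1.5-fold or more in any comparison with vehicle. At 8 µM and 48 h 3 rose and 1 fell, a split that became 0 and 1 without 48 h vehicle replicate 4. Glul, glutamine synthetase, read 8890.5, 9181, 8384, 7792 and 9216 in vehicle at 48 h and 7038, 5369, 6239, 6194 and 7086 at 200 µM. The groups did not overlap, with a log2 fold change of -0.45 ± 0.07 (limma adjusted p = 1.1e-05) and -0.31 ± 0.07 at 8 µM, while at 24 h the values were 0.06 and -0.08 and did not pass. Of its 2 further probe sets, one fell at 48 h at both doses (-0.27 and -0.34) and the other did not pass (-0.21 and -0.14).

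Gpt, alanine aminotransferase, read 20081, 21441, 19443, 18567 and 19837 in vehicle at 24 h and 14111, 15674, 14694, 14909.7 and 16076 at 200 µM. The 200 µM wells were all lower, and the log2 fold change was -0.40 ± 0.09 (limma adjusted p = 1.0e-03), against -0.04 ± 0.09 at 8 µM. At 48 h Gpt was -0.27 ± 0.09 at 200 µM, lost without any 1 of 4 arrays (adjusted p 0.060 to 0.090), and 0.29 ± 0.09 at 8 µM, which was 0.17 without 48 h vehicle replicate 4 and then did not pass (adjusted p = 0.050). Glud1 fell at 24 h (-0.23 and -0.30) and stood at 0.06 and -0.05 at 48 h, the latter -0.15 and called without 48 h vehicle replicate 4 (limma adjusted p = 0.0058). Its further probe set fell at 24 h (-0.35 and -0.57) and at 200 µM and 48 h (-0.32). Gls2, the liver type glutaminase, rose at 200 µM and 48 h (0.38) and did not pass elsewhere. Got1 and Got2, the cytosolic and mitochondrial aspartate aminotransferases, rose at 8 µM and 48 h by 0.17 each on the log2 scale, and both calls were lost without 48 h vehicle replicate 4 (adjusted p 0.091 and 0.103) and without 3 and 4 other single arrays. Got1 was called higher at 200 µM and 24 h without that array (0.16, limma adjusted p = 0.037). The dim further probe set of Got2 stood at 0.37 at 8 µM and 48 h and did not pass.

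All 6 urea cycle genes fell in at least 1 comparison, and none rose. Nags makes the activator of Cps1, Cps1 and Otc form citrulline in mitochondria, and Ass1, Asl and Arg1 complete the cycle in the cytosol. At 8 µM 5 of 6 fell at 24 h and 4 at 48 h, and at 200 µM 6 fell at 24 h and 5 at 48 h. Of all genes, 13.8% and 18.9% fell at 8 µM and 13.1% and 17.1% at 200 µM. Without 48 h vehicle replicate 4, 6 and 5 fell at 8 µM and 6 at each time at 200 µM. Median centring of all arrays ended every call of Cps1, Asl and Arg1 against vehicle, and some of those of Nags, Ass1 and Otc. The group median log2 fold change was -0.36 and -0.39 at 24 h and -0.32 and -0.33 at 48 h.

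Ass1, argininosuccinate synthase, read 59762, 61582, 57759.9, 40729 and 67448 in vehicle at 48 h and 28589, 29268, 29544, 30013 and 31563 at 8 µM. Vehicle replicate 4 was the lowest of its group and still above every 8 µM well, and the log2 fold change was -0.93 ± 0.08 (1.90-fold lower, limma adjusted p = 2.2e-11). It was -0.63 ± 0.08 at 200 µM and -0.71 ± 0.08 and -0.46 ± 0.08 at 24 h. Otc, ornithine transcarbamylase, had a mean of 1919.8 ± 319 in vehicle, 955 ± 256 at 8 µM and 1099 ± 212 at 200 µM at 24 h (SD, n = 5). Its log2 fold changes, -1.02 ± 0.17, -0.80 ± 0.17, -0.80 ± 0.17 and -0.59 ± 0.17, included the largest fall of the cycle at 24 h at each dose on the probe sets used.

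Nags, N-acetylglutamate synthase, read 7077, 6413, 6614, 5696 and 6330.2 in vehicle at 24 h and 4575, 4682, 4408, 4552 and 4326 at 200 µM. The groups were separate, and the change was -0.51 ± 0.08 (limma adjusted p = 2.8e-06), with -0.36, -0.33 and -0.35 in the other 3 comparisons. Asl fell at 24 h (-0.30 and -0.32) and at 200 µM and 48 h (-0.31), and stood at -0.18 at 8 µM and 48 h, which was -0.29 and called without 48 h vehicle replicate 4 and which its further probe set called lower (-0.19). Arg1, arginase, was the least moved. It fell at 200 µM and 24 h (-0.20), a call lost without any 1 of 7 arrays (adjusted p 0.053 to 0.127), and the other values were -0.16, -0.01 and -0.10. Without 48 h vehicle replicate 4, Arg1 was called lower in 3 comparisons, at -0.16 and -0.20 at 24 h and -0.19 at 200 µM and 48 h (limma adjusted p = 0.0094, 0.0016 and 0.0035).

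Cps1, carbamoyl phosphate synthetase, fell in all 4 comparisons, but the size depended on the probe set. The brighter one, used for the counts, gave -0.35 ± 0.07, -0.33 ± 0.07, -0.30 ± 0.07 and -0.26 ± 0.07. The other gave -1.69, -1.45, -1.77 and -1.47, with an SE of 0.08. On that probe set the 24 h vehicle wells read 35308, 37995, 37111, 38751 and 40771 and the 8 µM wells 12173, 10471, 11998, 11844 and 12519. Both probe sets separated vehicle from dosed wells at 24 h, and which of them follows the Cps1 transcript more closely was not tested. Over all the genes, 11 further probe sets were measured. In 26 of their comparisons the gene was called by its main probe set, and the further one gave the same call in 17, no call in 9 and the opposite call in 0.

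**Figure D3:**
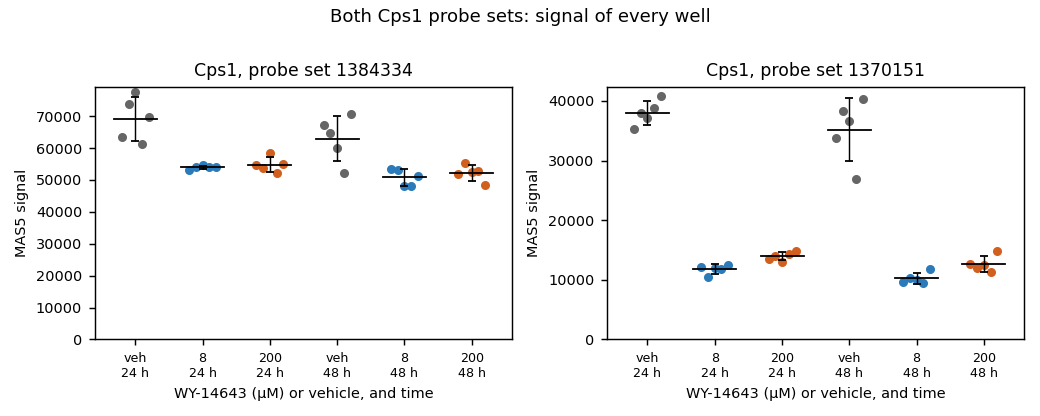
MAS5 signal of every well (points), group mean (bar) and SD (error bar, n = 5) for the 2 Cps1 probe sets, by dose and time. The left probe set drops from a vehicle mean of 69132 to 53939 at 8 µM at 24 h, and the right one from 37987 to 11801.

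Proline is oxidised by Prodh and Aldh4a1 to glutamate, and ornithine joins this route through Oat. Prodh and Aldh4a1 fell and Oat rose in all 4 comparisons. Aldh4a1 read 4859, 3912, 3992, 4178 and 4269 in vehicle at 24 h and 1953, 1829, 1993, 1984 and 2133 at 200 µM. Every dosed well was below every vehicle well, and the log2 fold change was -1.09 ± 0.09 (2.13-fold lower, limma adjusted p = 7.5e-12), with -0.92 ± 0.09 at 8 µM and -0.80 ± 0.09 and -0.52 ± 0.09 at 48 h. Prodh, proline dehydrogenase, had a mean of 2468 ± 501 in vehicle, 938 ± 152 at 8 µM and 1572 ± 234 at 200 µM at 48 h (SD, n = 5), and log2 fold changes of -1.47 ± 0.19, -1.04 ± 0.19, -1.37 ± 0.19 and -0.63 ± 0.19.

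Oat, the mitochondrial ornithine aminotransferase, showed the opposite direction to its neighbours. It read 3664, 4701, 4482, 3481 and 6637 in vehicle at 48 h and 17524, 16516, 17255, 15499 and 21114 at 8 µM. The highest vehicle well was below the lowest dosed well by a wide margin, and the log2 fold change was 1.96 ± 0.11 (3.90-fold higher, limma adjusted p = 8.6e-16), with 1.71 ± 0.11 at 200 µM. At 24 h it was 0.87 ± 0.11 and 0.69 ± 0.11. As described above, its start region held 2 CCAAT boxes, as did that of Dbt. The window of Cth, which fell, also held a CCAAT box, and that of Csad, which rose, did not. CCAAT was in 37.5% of all windows, and whether it bears on these changes was not tested.

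Aass, the bifunctional enzyme that begins lysine breakdown, passed the test at 48 h and not at 24 h. It read 3661, 4441, 4236, 4884 and 4633 in vehicle at 48 h and 1533, 2469, 1862, 1881 and 2959 at 8 µM. The groups did not overlap, and the log2 fold change was -1.06 ± 0.12 (limma adjusted p = 2.0e-08), with -0.53 ± 0.12 at 200 µM. At 24 h it was -0.20 ± 0.12 and -0.14 ± 0.12, which did not pass (adjusted p = 0.27 and 0.48).

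Branched-chain amino acids are transaminated by Bcat2 and decarboxylated by a complex of Bckdha, Bckdhb and Dbt, after which Ivd and Mccc1 act on the leucine branch and Hibch and Aldh6a1 on the valine branch. The subunits of the complex did not move together. Dbt, its acyltransferase core, rose in all 4 comparisons, Bckdhb rose in 3, and Bckdha fell at 24 h. Of the 8 genes 3 rose and 2 fell at 8 µM and 24 h, 2 rose and 3 fell at 200 µM and 24 h, and at 48 h 3 rose at each dose with 1 falling at 8 µM and 0 at 200 µM. The split at 200 µM was 3 up and 4 down at 24 h and 3 and 1 at 48 h without 48 h vehicle replicate 4. The share of these 8 genes that rose, 37.5% at both doses at 48 h, was above the background of 16.7% and 16.8%, but was not particular to this group. In the histidine group and in the proline and ornithine group 33.3% rose at each dose at 48 h. At 200 µM and 24 h 25% of the 8 rose and 37.5% fell.

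Dbt read 5359.9, 5125, 4953, 3854 and 4955 in vehicle at 48 h and 11449.7, 13148, 10478, 11420.1 and 11751 at 200 µM. No well overlapped, and the log2 fold change was 1.27 ± 0.07 (2.41-fold higher, limma adjusted p = 3.2e-16), with 1.08 ± 0.07 at 8 µM and 1.14 ± 0.07 and 1.25 ± 0.07 at 24 h. A dim further probe set of Dbt (mean signal 147, SE 0.51) rose at 24 h (1.71 and 1.98). At 48 h it stood at 1.17 and 1.01, which did not pass (limma adjusted p = 0.080 and 0.14). Hibch, 3-hydroxyisobutyryl-CoA hydrolase of valine breakdown, read 9244, 10211, 9103, 7291 and 9432 in vehicle and 17986, 17567, 18574, 18603 and 21087 at 200 µM at 48 h. Again all dosed wells were higher, with a change of 1.06 ± 0.07 (limma adjusted p = 1.7e-13) and values of 0.91 ± 0.07, 0.88 ± 0.07 and 1.02 ± 0.07 in the other comparisons.

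Bckdhb, a decarboxylase subunit, rose at 8 µM at both times (0.41 and 0.61) and at 200 µM at 48 h (0.43), with 0.22 at 200 µM and 24 h, which was called without 48 h vehicle replicate 4 (limma adjusted p = 0.0027). Bckdha, its partner subunit, fell at 24 h (-0.47 and -0.55) and stood at 0.00 and -0.10 at 48 h. Its dim further probe set (mean signal 296) stood at -0.32 and -0.36 at 24 h and did not pass (limma adjusted p = 0.53 and 0.46). Ivd, isovaleryl-CoA dehydrogenase, fell at 8 µM (-0.54 and -0.47) and at 200 µM and 24 h (-0.45), and the last 2 calls were each lost without single arrays, 6 for 8 µM at 48 h (adjusted p 0.060 to 0.079) and 7 for 200 µM at 24 h (0.058 to 0.098). At 200 µM and 48 h it stood at -0.31 and did not pass (adjusted p = 0.15). The 48 h vehicle replicate 4 read 1412 against 3437 to 3778 in the other 4 vehicle wells, and without it Ivd stood at -0.74 at 8 µM and -0.58 at 200 µM at 48 h, both called (limma adjusted p = 1.7e-07 and 1.2e-05). Bcat2, which is low in hepatocytes, fell at 200 µM and 24 h (-0.97), but not without 24 h 200 µM replicate 2 (adjusted p = 0.079), and stood at -0.52, 0.26 and 0.23 in the other comparisons. Mccc1 and Aldh6a1 passed in none, with values between -0.16 and 0.19 and between -0.18 and 0.12, and without 48 h vehicle replicate 4 Aldh6a1 was called lower at 200 µM and 24 h (-0.18, limma adjusted p = 0.0087).

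**Figure D4:**
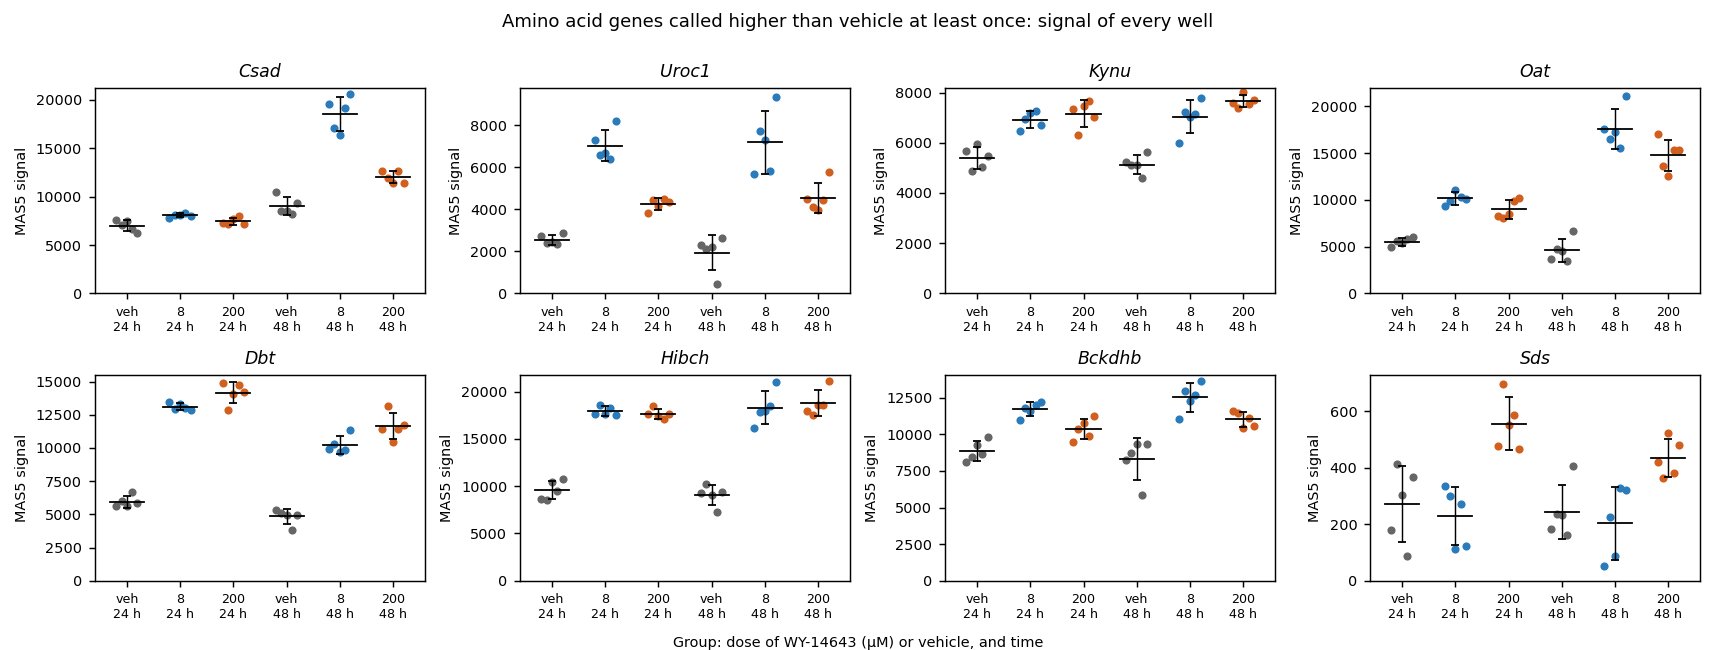
MAS5 signal of every well (points), group mean (bar) and SD (error bar, n = 5) for 8 genes that were called higher than vehicle at least once, by dose and time. Every dosed well of Dbt, Hibch and Oat lies above every vehicle well of its time, the dosed wells of Oat are higher at 48 h than at 24 h, and Csad is highest in the 8 µM wells at 48 h.

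A direct comparison of the doses over all arrays found few differences, and most of them were a smaller fall at 200 µM. At 24 h 4 genes were higher and 2 lower at 200 µM than at 8 µM, where 1.39% and 1.63% of all genes were, and at 48 h 8 were higher and 4 lower, against 2.26% and 2.53%. Mat1a differed by 1.00 ± 0.10 at 24 h and 0.92 ± 0.10 at 48 h (limma adjusted p = 1.3e-07 and 1.9e-07), and Cth by 0.74 ± 0.09 and 0.98 ± 0.09 (4.2e-06 and 5.3e-09). Tat differed by 0.78 ± 0.11 and 0.60 ± 0.11, and Tdo2 by 0.31 ± 0.08 at 24 h, a call lost without any 1 of 6 arrays (adjusted p 0.055 to 0.087). In each of these the mean of the 200 µM wells lay between the means of vehicle and 8 µM. At 48 h Prodh (0.74), Kmo (0.69), Aass (0.53), Ass1 (0.30) and Hgd (0.52) were higher at 200 µM as well, and the calls of Prodh, Ass1 and Hgd were each lost without any 1 of 3 arrays (adjusted p 0.053 to 0.073, 0.055 to 0.070 and 0.052 to 0.058).

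Lower at 200 µM than at 8 µM were Afmid (-0.50 ± 0.09 at 24 h and -0.51 ± 0.09 at 48 h), Gpt (-0.35 ± 0.09 and -0.55 ± 0.09), and at 48 h Csad (-0.62 ± 0.07) and Cdo1 (-0.25). The 24 h call of Gpt was lost without any 1 of 5 arrays (adjusted p 0.051 to 0.068) and the call of Cdo1 without any 1 of 22 (0.051 to 0.157). For Afmid at 24 h the higher dose gave the larger fall, for Gpt at 48 h the lower dose gave a rise and the higher a fall, and for Csad the higher dose gave the smaller rise. As given above, that rise of Gpt was not called without 48 h vehicle replicate 4, and the fall was lost without any 1 of 4 arrays. Over all arrays Dbt, Hibch, Oat and Uroc1 were not called different between doses. The 200 µM minus 8 µM difference was 0.11 ± 0.07 and 0.19 ± 0.07 for Dbt, -0.03 ± 0.07 and 0.04 ± 0.07 for Hibch and -0.18 ± 0.11 and -0.25 ± 0.11 for Oat at 24 h and 48 h, with adjusted p-values of 0.15 or more. A p that misses the threshold does not show equal responses. For Uroc1 the difference was -0.72 ± 0.25 and -0.64 ± 0.25, not called over all arrays (adjusted p = 0.14 and 0.17) but called without 48 h vehicle replicate 4, where the same differences had an SE of 0.11 (2.4e-05 and 8.3e-05). Dbt was then called higher at 200 µM at 48 h (0.19, limma adjusted p = 0.027), while Hibch and Oat were not called. Without that array 7 genes were higher and 3 lower at 24 h and 13 higher and 7 lower at 48 h, against 2.8%, 3.17%, 4.4% and 4.68% of all genes. Beside Uroc1, the added calls at 24 h were Ass1 (0.26), Got1 (0.19) and Sds (1.33), all higher at 200 µM. Those at 48 h beside Uroc1 and Dbt were Ahcy (0.14), Aldh4a1 (0.27), Gls2 (0.32) and Sds (1.29), which were higher at 200 µM, and Bckdhb (-0.18) and Ftcd (-0.22), which were lower.

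**Figure D5:**
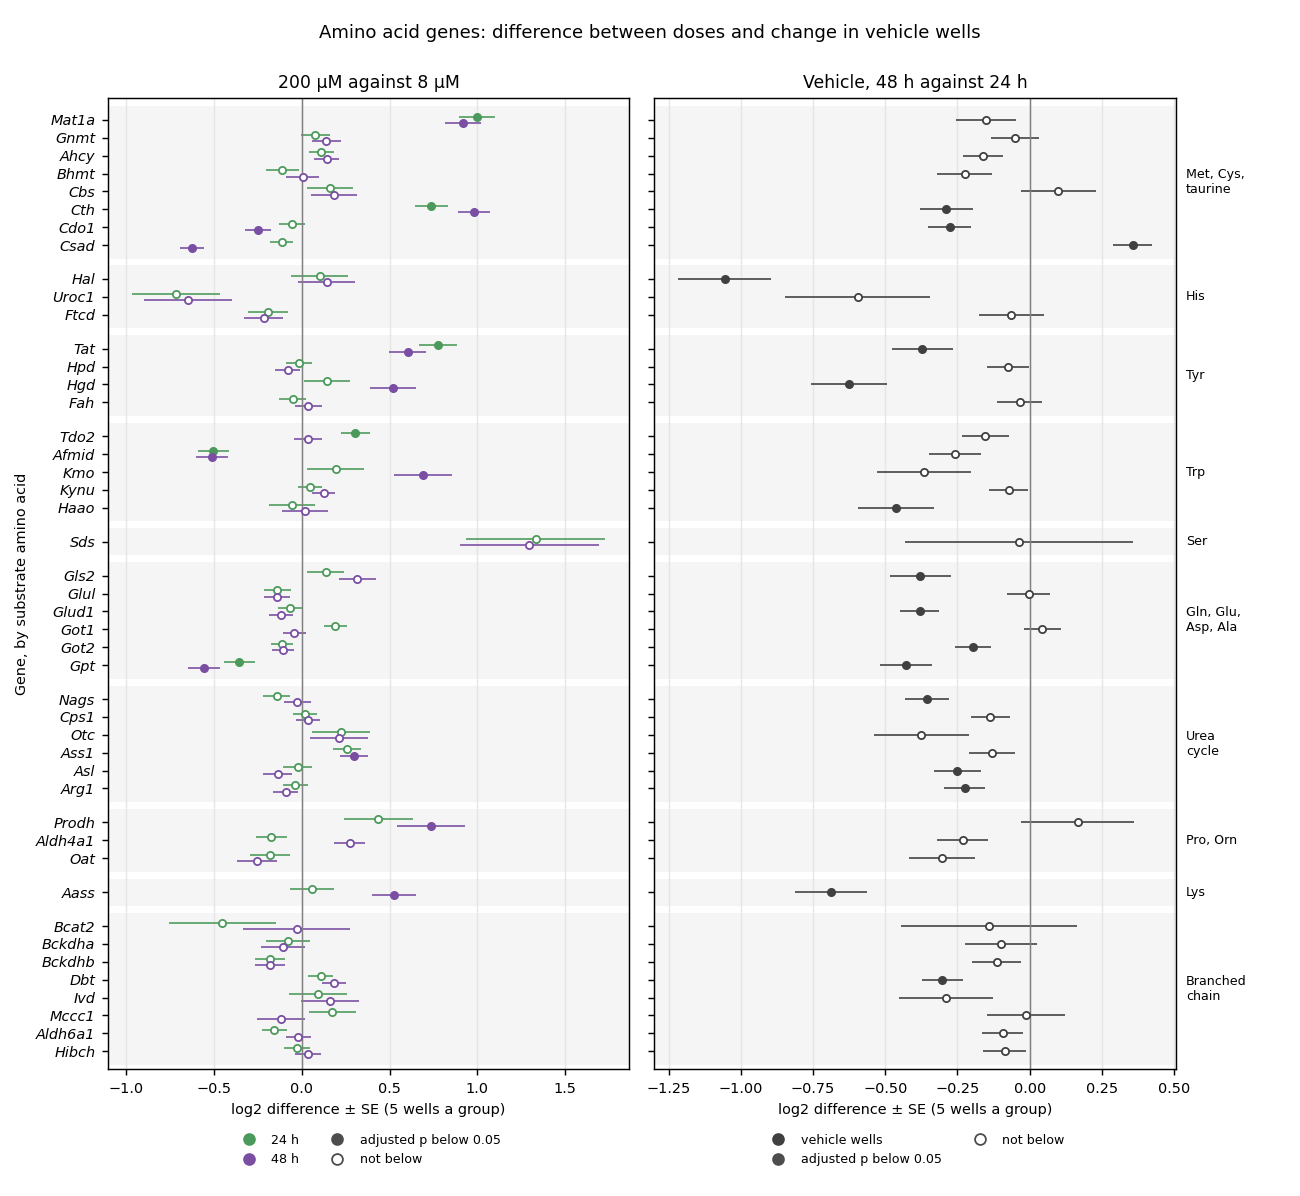
Left, log2 difference of 200 µM against 8 µM (x axis, ± SE, 5 wells a group) at 24 h (green) and 48 h (purple) for the 45 genes; right, log2 difference of 48 h against 24 h in vehicle wells. Filled points mark adjusted p below 0.05, and Mat1a, Cth and Tat are filled to the right at both times in the left panel, while the right panel has 15 filled points left of 0 and 1, Csad, to the right.

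The change against vehicle differed between 24 h and 48 h for few of the genes. For 8 µM, 2 moved up and 2 down, against 1.67% and 1.23% of all genes, and for 200 µM, 3 moved up and 0 down, against 1.3% and 1.11%. Without 48 h vehicle replicate 4 these counts were 3 up and 4 down at each dose, against 2.39% and 2.73% of all genes at 8 µM and 1.92% and 2.34% at 200 µM. The rise of Oat was larger at 48 h by 1.09 ± 0.16 at 8 µM and 1.02 ± 0.16 at 200 µM (limma adjusted p = 4.6e-05 and 1.5e-04), and that of Csad by 0.84 ± 0.09 at 8 µM (4.0e-07). The fall of Aass was larger at 48 h by 0.85 on the log2 scale at 8 µM (0.0035), and that of Gnmt by 0.43 at 8 µM (0.035), the latter lost without any 1 of 15 arrays (adjusted p 0.051 to 0.077) and kept without 48 h vehicle replicate 4 (-0.54, adjusted p = 6.5e-05). Aldh4a1 at 200 µM fell less at 48 h than at 24 h, a difference of 0.57 ± 0.13 (0.0079). Hgd at 200 µM went from -0.31 to 0.42, a difference of 0.73 ± 0.19 (0.026), lost without any 1 of 6 arrays (adjusted p 0.050 to 0.057). The differences called in addition without 48 h vehicle replicate 4 were those of Glud1 (0.20), Ass1 (-0.33) and Glul (-0.40) at 8 µM and of Gnmt (-0.48), Tdo2 (-0.46), Glul (-0.41) and Ass1 (-0.29) at 200 µM (limma adjusted p between 4.2e-04 and 0.047).

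In vehicle wells alone 15 of the 45 genes fell and 1 rose between 24 h and 48 h, where 5.4% and 4.46% of all genes did. Hal fell by 1.06, Aass by 0.69 and Hgd by 0.63 on the log2 scale (limma adjusted p = 2.2e-05, 2.4e-04 and 0.0015), the 3 of the 15 that were called under every alternative tried. The others that fell were Haao (-0.46), Gpt (-0.43), Gls2 (-0.38), Glud1 (-0.38), Tat (-0.37), Nags (-0.36), Dbt (-0.30), Cth (-0.29), Cdo1 (-0.28), Asl (-0.25), Arg1 (-0.23) and Got2 (-0.20), and Csad rose (0.36). Without 48 h vehicle replicate 4 the count was 10 down and 1 up, against 4.67% and 6.08% of all genes, since Cth, Tat, Gls2, Got2, Asl and Arg1 did not pass and Aldh4a1 (-0.30) did. Single other arrays also ended the calls of Cdo1 and Haao (24 h vehicle replicate 3, adjusted p 0.056 and 0.060). Hal and Aass at 48 h were thus lower under WY-14643 against a vehicle level that was itself lower than at 24 h. These comparisons share their vehicle wells with those against vehicle at 48 h.

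Other genes of amino acid metabolism, 68 on a list of further enzymes and carriers, of which 55 were tested, moved in both directions. At 24 h 10 rose and 17 fell at 8 µM (18.2% and 30.9%, against 11.1% and 13.8% of all genes) and 9 and 20 at 200 µM (16.4% and 36.4%, against 11.6% and 13.1%). At 48 h 16 rose and 13 fell at 8 µM (29.1% and 23.6%, against 16.7% and 18.9%) and 12 and 14 at 200 µM (21.8% and 25.5%, against 16.8% and 17.1%). The counts without 48 h vehicle replicate 4 were 11 and 20, 9 and 21, 15 and 15, and 14 and 20. The list had a median log2 fold change of -0.09, -0.06, 0.05 and -0.01. Agxt, the alanine-glyoxylate aminotransferase, rose by 1.39, 1.25, 1.43 and 1.33. Ppm1k, the phosphatase that activates the branched-chain dehydrogenase complex of Bckdha, Bckdhb and Dbt, rose by 1.52, 1.56, 1.87 and 2.07 (limma adjusted p = 3.2e-14 for the last). Slc25a15, the carrier that brings ornithine to Otc, fell by 0.99, 0.78, 0.59 and 0.52 on the log2 scale. Acmsd, which diverts the product of Haao away from NAD, fell by 1.53, 1.48, 1.96 and 1.63.

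Of 15 transcription factors and receptors known to act on hepatic amino acid enzymes 13 were tested, and 1 rose and 5 fell, 2 and 3, 2 and 6, and 2 and 5 in the 4 comparisons. The shares that rose, 7.69%, 15.4%, 15.4% and 15.4%, compare with 11.1%, 11.6%, 16.7% and 16.8% of all genes. Those that fell, 38.5%, 23.1%, 46.2% and 38.5%, compare with 13.8%, 13.1%, 18.9% and 17.1%. Without 48 h vehicle replicate 4 the counts were 2 and 5, 2 and 3, 2 and 7, and 2 and 5. Nr1h4, the bile acid receptor, rose by 1.24, 0.99, 1.14 and 1.14. Nr3c1, the glucocorticoid receptor, through which Tat and Tdo2 are classically induced, fell by 0.54, 0.47, 0.50 and 0.50 (limma adjusted p = 8.2e-10 for the first). Foxa2 fell by 0.54, 0.56, 0.49 and 0.63, and Onecut1, another liver-enriched factor, fell at 8 µM (-0.88 and -1.50) and at 200 µM and 48 h (-1.17), with -0.47 at 200 µM and 24 h, which did not pass. Whether any of these bears on the amino acid genes was not tested.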

How the data were processed

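The deposited values are MAS5 signals, a linear intensity per probe set made by the authors, per the submitters' processing notes; version, scaling target and chip definition are not given in the sources used here. Each array's 2% trimmed mean lay between 1500 and 1501, so the arrays had been scaled to a common level and were not rescaled. Symbols came from the platform annotation of 2016. Signals were taken as log2(signal + 16), so a fold change understates that of dim genes. Probe sets passed the filter with signals over 281, which is the percentile 40 of the whole table, on 5 or more of the 30 arrays, and each gene was represented by its kept probe set of highest mean log2 signal, giving 11545 genes.

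limma 3.58.1 in R 4.3.3 was fitted to all 30 arrays with 1 mean per group (lmFit, contrasts.fit, eBayes with a variance trend). Tests were two-sided, with Benjamini-Hochberg adjustment over all genes and a threshold of 0.05, and 9 contrasts were made. The script was tested on simulated data. The members, lists and tests were chosen with earlier results of these data known. In each substrate group the 2 genes with the largest moderated statistic against vehicle (the only gene where a group has 1) are given with every well of that contrast, and the same statistic chose the 4 genes named from each further list, the 3 target genes and the 4 promoters. Replicate numbers follow the array order, with each group once in each of 5 runs of 6 arrays. The labels do not say that a run shares a day or batch, and deviations of arrays in 1 run correlated with a median r of 0.013, against -0.005 for other pairs. Alternatives were other pseudocounts (1 and 64), quantile normalization, median centring, other filters, averaging the probe sets of a gene, the run as a block, no variance trend, array weights, a fit on only the groups compared, and leaving out each array. Median centring and quantile normalization without 48 h vehicle replicate 4 were added after the data were seen. Promoter sequences come from a RefSeq table of build GRCr8.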

Additional observations from a re-analysis of the deposited data

Results flagged for a closer look

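Among the 18 genes given with every well, each of the 6 groups was checked for a well lying apart from the other 4 (108 groups, where chance marks about 1 in 20), and 9 did. Of these, 4 were the 48 h vehicle replicate 4: Uroc1 read 469 against 2097 to 2653 in the other wells, Nags 3969 against 5151 to 5584, Dbt 3854 against 4953 to 5360, and Aldh4a1, in the other direction, 4293 against 3313 to 3551. The same array stood apart in its median signal. The 48 h 200 µM replicate 5 was high for Uroc1 (5775 against 3982 to 4488) and Aass (3906 against 2656 to 2961). Single wells also stood apart for Tat (24 h vehicle replicate 5, 20308 against 16477 to 17378), Ass1 (24 h 200 µM replicate 1, 42082 against 45347 to 46439) and Nags (24 h 8 µM replicate 5, 5702 against 4750 to 4889.9).

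The effect of a dose differed between 24 h and 48 h, by the interaction term in limma, for 4 genes at 8 µM and 3 at 200 µM over all arrays, and for 3 up and 4 down at each dose when 48 h vehicle replicate 4 was left out. At 8 µM the log2 differences (48 h minus 24 h) were 1.09 for Oat, 0.84 for Csad, -0.85 for Aass and -0.43 for Gnmt. At 200 µM they were 1.02 for Oat, 0.73 for Hgd and 0.57 for Aldh4a1.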

How the results depend on the processing

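Of 158 calls of the amino acid genes over 9 comparisons, 71 were kept under every alternative, 47 were lost under median centring alone, and none of the called genes changed direction. Median centring kept 74 calls, and gave 4, 3, 9 and 10 genes up and 11, 9, 12 and 4 down against vehicle (8 µM and 200 µM at 24 h, then at 48 h), 2 and 4 changed between doses at 24 h and 48 h, 2 with a different 8 µM effect between times and 3 changed in vehicle wells. Combined with leaving out 48 h vehicle replicate 4, an alternative added after the data were seen, it kept 146 and gave 5 with a different 200 µM effect and 7 changed in vehicle. Quantile normalization gave 10 and 8 with a different 8 µM and 200 µM effect between times, and without that array also 12 and 20 changed between doses, and again 10 and 8. Array weights gave 11 and 20 changed between doses and 8 with a different effect between times at each dose. A fit on only the groups compared gave 7 changed between doses at 48 h and 5 in vehicle. Each run of 6 arrays held every group once. Whether a run pairs the arrays is not known from the labels, and deviations within a run had a median r of 0.013. With the run of 6 arrays as a replicate block every call was kept and 9 were gained, and 5 genes had a different 200 µM effect between times, against 3. Leaving out single arrays gave, as lowest and highest counts, 6 to 8, 4 to 9, 7 to 10 and 9 to 10 up and 22 to 24, 20 to 27, 18 to 22 and 17 to 26 down against vehicle, 4 to 10 and 9 to 20 changed between doses, 3 to 7 and 2 to 7 with a different 8 µM and 200 µM effect between times, and 10 to 18 in vehicle. Of the 117 calls against vehicle 15 were lost without some single array. The shares of all genes called are not given beside the counts in this section, which therefore have no background here. The other alternatives (pseudocounts, filters, mean of probe sets, no variance trend) kept all counts within 1.5-fold. Signal over background limits the dim probe sets most, such as Sds and Bcat2, whose errors were the largest of these genes against vehicle.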
